A study of Mus musculus with 27 samples.

Results

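Remote myocardium, the heart muscle away from an infarct, was compared between 8 mice with chronic kidney disease (CKD) and 6 control mice, in the 14 libraries of a 27-library series whose titles end in Remote. CKD mice were male ApoE-/- animals on C57BL/6J that ate a western diet for 4 weeks and then the same diet with adenine, at 0.3% for 10 days and at 0.15% for 11 days. The lower dose covered 4 days before the infarction and 7 days after it, when the hearts were taken. Control mice were male ApoE-/- C57BL/6J animals with an infarct of the same age that stayed on the western diet throughout. The ApoE deletion, the western diet and the infarct were therefore shared by both groups, and no group had kidney disease without an infarct. Direct effects of adenine and effects of kidney disease cannot be told apart in this design. The age of the animals is not given in the sources used here. The other 13 libraries came from infarct tissue of 7 of the CKD mice and all 6 control mice.

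Adenine in the diet forms crystals in the kidney tubules and so damages the kidney, while the remote myocardium goes on working and takes over load from the infarcted wall. Besides cardiomyocytes it holds fibroblasts, vessels, resident macrophages, dendritic cells and a few circulating leukocytes, and a mesothelial layer, the epicardium, covers it. Growth hormone, prolactin and several cytokines signal in such tissue through JAK2 and the transcription factors STAT5A and STAT5B, which switch on their own inhibitors Cish and Socs2 and are known in other tissues to repress Bcl6.

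The remote libraries had 17699794 to 42566498 counts each, and values below are CPM, the share of a library's counts on a common scale with TMM factors. Heart muscle markers were high in all of them: Myh6, the alpha myosin heavy chain, had 23606 to 30502 CPM in CKD libraries and 25410 to 30950 CPM in 5 of the 6 control libraries, with 11073 CPM in the library of control mouse 9180. Apoe averaged 17.6 ± 3.63 CPM in CKD and 15.5 ± 2.53 CPM in control libraries (SD, n = 8 and 6). Atrial muscle was present in some libraries of both groups, with Myl7, the atrial regulatory light chain, between 0.112 and 319 CPM in CKD and between 0.450 and 225 CPM in control libraries. Mouse 9179 is a CKD animal by the title of its remote library and a control by the treatment label of that library, and the title was followed.

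In the control group 3 libraries stood apart. That of mouse 9180 was rich in scar transcripts, with Col1a1, a fibrillar collagen gene, at 3569 CPM, against 102 to 298 CPM in CKD and 151 to 939 CPM in the other control libraries. Those of mice 9183 and 9184 held transcripts of kidney tubule. Kap, an androgen-regulated protein of the proximal tubule, had 289 and 75.8 CPM there, and Slc34a1, the phosphate carrier of the same cells, had 58.5 and 29.2 CPM. In the other 12 remote libraries Kap reached at most 0.0785 CPM and Slc34a1 at most 0.0485 CPM. The summed level of 10 tubule genes, picked after these values were seen, was 0.104 to 1.78 CPM in CKD libraries and 0.366 to 1.21 CPM in the other 4 control libraries, but 447 CPM in 9183 and 146 CPM in 9184. All 10 were detected in both of these libraries, Umod of the thick ascending limb and Slc22a6 of the proximal tubule included, whereas 6 to 9 of the 10 had no count in each of the others. In infarct tissue the sum was 11.2 CPM in the library of mouse 9184, 1.71 CPM in that of 9183 and at most 4.58 CPM elsewhere. Results below are therefore given with all 14 libraries and without 9180, and, where they change, without 9183 and 9184.

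**Figure D1:**
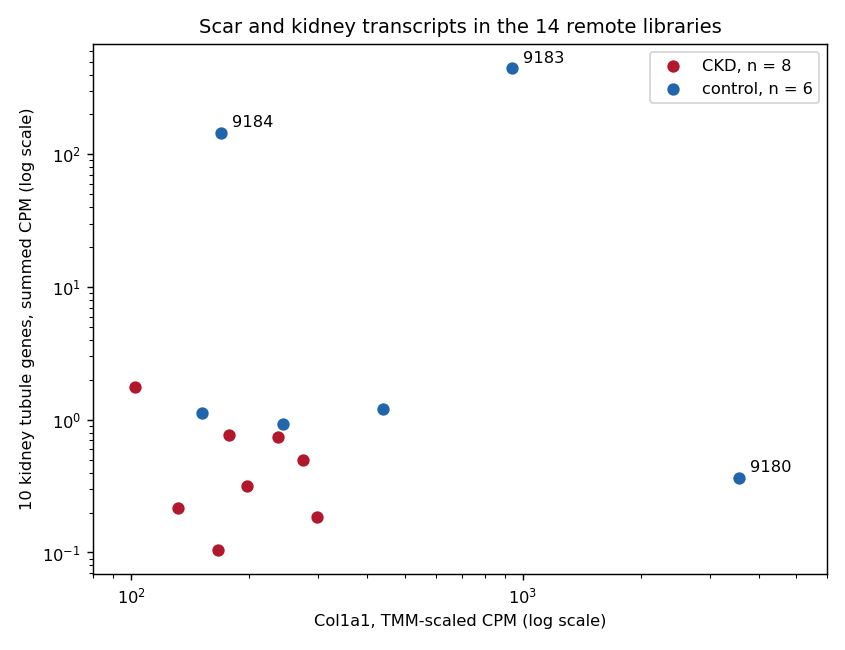
Each point is 1 remote library, with the Col1a1 level (TMM-scaled CPM, log scale) on the x axis and the summed level of 10 kidney tubule genes (CPM, log scale) on the y axis, CKD in red (n = 8) and control in blue (n = 6). Control 9180 lies far to the right at 3569 CPM of Col1a1, and controls 9183 and 9184 lie far above the rest at 447 and 146 CPM of kidney transcripts.

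Over 13902 genes tested, 3 passed an adjusted p of 0.05 with all 14 libraries (0.0216%), all of them lower in CKD, and 1 of 13920 passed without 9180 (0.00718%). With 14 libraries, 438 genes had an unadjusted p under 0.01 (3.15%), 145 higher (1.04%) and 293 lower in CKD (2.11%). Without 9180 there were 284 (2.04%), 114 higher (0.819%) and 170 lower (1.22%). DESeq2 called 97 genes at an adjusted p of 0.05 (0.699%) and 63 without 9180 (0.453%). The share under an unadjusted p of 0.05 was 11.7% with 14 libraries and 8.10% without 9180. A gene is said to hold here if it has an unadjusted p under 0.01 with the same sign in both fits, which share 13 libraries and are not independent. By that rule 205 of 13881 genes tested in both held (1.48%), 81 higher (0.584%) and 124 lower in CKD (0.893%). With any 1 further library left out as well, 64 still held (0.461%), 32 in each direction. The higher genes that held were mostly small changes, with a median log2 fold change of 0.47. Their median level was 23.6 CPM, against 15.7 CPM for all genes tested. The lower ones were larger changes of weakly expressed genes, with a median of -0.86 (-0.68 without 9180) at 5.67 CPM. Of the 44 that differed over 2-fold in both fits, 38 were lower in CKD.

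Of the 438 genes, 233 did not hold, 169 of them lower in CKD, and their median log2 fold change was -0.53 with and -0.38 without 9180. Col1a1, Cthrc1 and Postn are of this kind. Without 9183 and 9184, 105 of the 205 held again in fits with and without 9180, 69 lower and 36 higher, although only 4 and 3 control libraries remained there. In those fits 0.0142% and 0.0141% of all genes passed the adjusted threshold, and 4.66% and 2.43% had an unadjusted p under 0.01. Without all 3 of these libraries, 122 of the 124 lower genes and 81 of the 81 higher genes kept their side of 0. That was likely beforehand, because the genes were chosen in fits that hold all the libraries left here. In this fit 17 of the lower and 8 of the higher genes had an unadjusted p of 0.05 or more by edgeR.

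**Figure D2:**
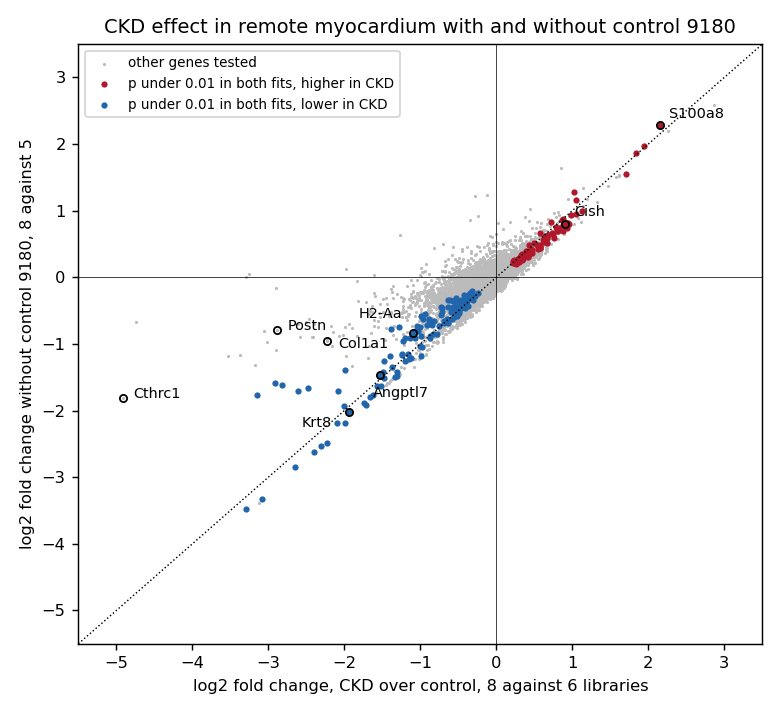
Each point is a gene, with its log2 fold change of CKD over control from all 14 libraries on the x axis and from 13 libraries without control 9180 on the y axis. Genes with an unadjusted p under 0.01 in both fits lie mostly along the dotted line of equal values (red, 81 higher; blue, 124 lower), while scar genes such as Cthrc1 (-4.91 and -1.82) and Postn (-2.88 and -0.79) lie above it.

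The 3 genes that fell encode a secreted angiopoietin-like protein, a surface protein of mature dendritic cells and a water channel. Angptl7 had a lowest, median and highest level of 1.83, 2.11 and 3.14 CPM in CKD and of 3.38, 6.81 and 9.03 CPM in control libraries. Its groups did not overlap, as in 31 of all 13902 genes (0.223%), and it fell by 1.53 ± 0.20 on the log2 scale (SE, adjusted p = 0.0128), and by 1.47 ± 0.20 without 9180 (adjusted p = 0.0353). Cd83 had 2.77, 3.29 and 4.29 CPM in CKD against 4.73, 6.46 and 8.74 CPM in control libraries, again without overlap (-0.99 ± 0.15, adjusted p = 0.0429, and 0.0874 without 9180). Aqp8 had 1.14, 2.0 and 3.42 CPM in CKD against 4.02, 5.20 and 7.13 CPM in control libraries, also apart (-1.38 ± 0.22, adjusted p = 0.0485, and 0.105 without 9180). Without the kidney-containing libraries 9183 and 9184, Angptl7 stood at -1.63 (adjusted p = 0.00484), Cd83 at -1.14 (adjusted p = 0.00897) and Aqp8 at -1.27 (adjusted p = 0.140). Without 9180, 9183 and 9184, Angptl7 and Cd83 passed (adjusted p = 0.0226 and 0.0419) and Aqp8 did not (adjusted p = 0.239). Angptl7 thus passed in each of these 4 fits, Cd83 in 3 of them and Aqp8 only with all 14 libraries.

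Among genes of the STAT5 pathway, Cish and Socs2 stood higher in CKD and Bcl6 lower. Cish, an inhibitor that STAT5 induces, had 66.8, 78.4 and 122 CPM (lowest, median, highest) in CKD and 29.1, 44.6 and 64.0 CPM in control libraries. Every CKD library lay above every control library. The difference was 0.91 ± 0.20 on the log2 scale (SE, adjusted p = 0.182), 0.80 without 9180 and 1.08 without 9183 and 9184. Socs2, an inhibitor of growth hormone signalling from the same family, had 59.3, 89.7 and 110 CPM in CKD and 44.3, 57.9 and 75.2 CPM in control libraries, which overlap (0.58 ± 0.15, adjusted p = 0.265, and 0.67 without 9180). Bcl6, a transcriptional repressor, had 5.86, 8.24 and 14.3 CPM in CKD against 14.8, 16.1 and 17.7 CPM in control libraries (-0.87 ± 0.17, adjusted p = 0.116, and -0.88 without 9180). Its groups did not overlap, and the CKD library nearest to control was that of mouse 9179, whose labels conflict. All 3 held whichever further library was left out, as 0.461% of all genes did, and none passed the adjusted threshold.

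The other genes of the pathway, in a list of 12 written after the values were seen, did not hold. The list thus had 3 of 12 genes that held, where 1.48% of all genes did. Stat5a, Stat5b and Jak2 stood at 0.11 ± 0.15, 0.12 ± 0.14 and -0.15 ± 0.11 (log2 fold change, SE), and the growth hormone receptor gene Ghr at 0.07 ± 0.12. The prolactin receptor gene Prlr stood at 0.63 ± 0.26 (unadjusted p = 0.0266), Pim1, another target, at 0.08 ± 0.14, and Igf1 at -0.72 ± 0.34 with and -0.21 without 9180. Socs1 and Socs3, feedback genes of other STATs, stood at -0.33 and -0.21. The list had a median of 0.07, against -0.00 for all genes tested.

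The promoters of Cish and Bcl6 are printed because both genes set the groups apart and carry the STAT5 motif TTCNNNGAA, which reads the same on both strands. The letters come from RefSeq on GRCm38.p6, a build earlier than that of the counts, and the search, chosen after the values were seen, covered 250 bases before and 50 after each annotated start. Capitals mark the motif.
Cish, chr9:107296559-107296678, plus strand: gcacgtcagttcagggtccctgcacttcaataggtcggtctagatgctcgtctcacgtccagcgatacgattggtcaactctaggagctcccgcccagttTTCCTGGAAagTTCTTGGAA
Bcl6, chr16:23981344-23981463, minus strand: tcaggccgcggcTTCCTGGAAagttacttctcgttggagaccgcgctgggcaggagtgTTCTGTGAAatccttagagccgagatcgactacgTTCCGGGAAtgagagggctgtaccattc
Bcl6, chr16:23988913-23989032, minus strand: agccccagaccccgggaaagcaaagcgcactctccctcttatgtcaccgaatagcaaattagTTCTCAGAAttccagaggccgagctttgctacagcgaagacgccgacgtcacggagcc
Cish has 2 copies, at 1 and 12 bases from the annotated start, and the 2 Bcl6 entries have 3 copies and 1 copy. Of 32851 promoters in the table, 8.30% hold at least 1 copy, 0.457% at least 2 and 0.0335% at least 3. Socs2 has no entry in that table, and the other genes of the STAT5 list were not looked up. A match is a run of letters and was not tested for binding.

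**Figure D3:**
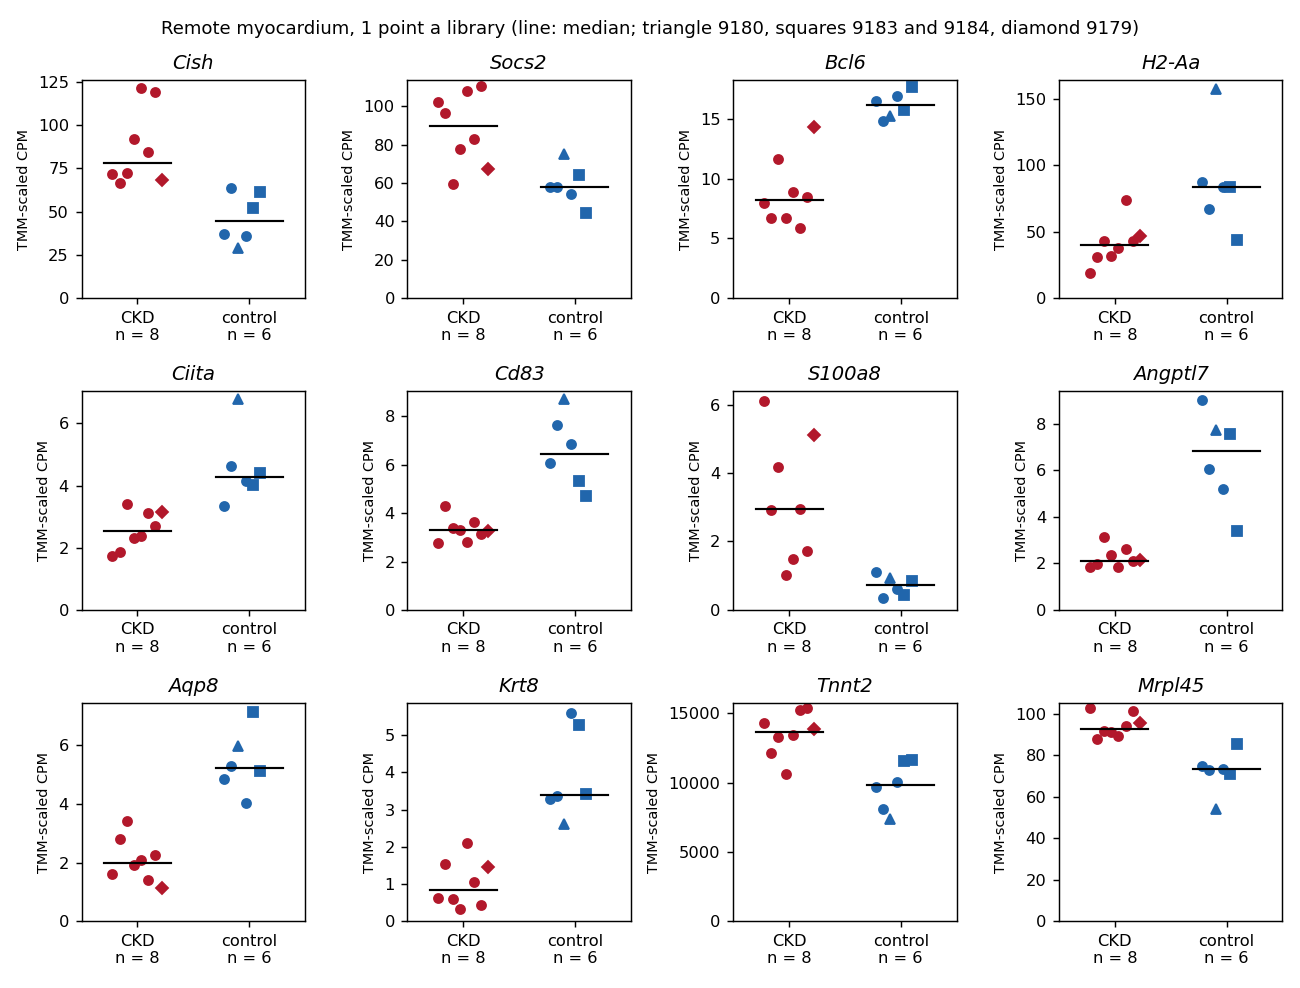
TMM-scaled CPM (y axis, from 0) of 12 genes in each of the 14 remote libraries, CKD in red (n = 8) left of control in blue (n = 6), with the median as a line. A triangle marks control 9180, squares 9183 and 9184 and a diamond CKD 9179. Cish, Bcl6, Cd83, Angptl7, Aqp8, Krt8 and Mrpl45 show no overlap between the groups, whereas Socs2, H2-Aa, Ciita, S100a8 and Tnnt2 overlap.

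Genes of MHC class II, which present antigen to helper T cells, stood lower in CKD together with their activator. Of 8 members tested, all 8 lay below 0 and 6 held lower, among 0.893% of all genes, with a median log2 fold change of -0.96 (-0.74 without 9180 and -1.14 without 9183 and 9184). Ciita, the activator these genes depend on, had 1.72, 2.53 and 3.42 CPM (lowest, median, highest) in CKD and 3.35, 4.26 and 6.78 CPM in control libraries (-0.82 ± 0.19, SE, adjusted p = 0.207). The highest CKD library only just reached the lowest control library. H2-Aa, an alpha chain, had 19, 40.4 and 74.1 CPM in CKD and 44.1, 83.6 and 158 CPM in control libraries (-1.10 ± 0.27, adjusted p = 0.236, and -0.83 without 9180). H2-DMb1, a chain of the peptide-loading protein, had 2.82, 3.52 and 6.20 CPM in CKD against 3.77, 7.71 and 14.9 CPM in control libraries (-1.08 ± 0.25, adjusted p = 0.232, and -0.81 without 9180). In both genes control 9180 was the highest and control 9184 the lowest library of its group.

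The remaining members that held were H2-Ab1 at -1.03 ± 0.26, H2-Eb1 at -1.01 ± 0.27 and Cd74, the invariant chain, at -0.92 ± 0.24. Ciita and H2-DMb1 held whichever of 13 further libraries was left out. H2-Aa held in 12 of these 13 cases, H2-Ab1 and Cd74 in 11 and H2-Eb1 in 5. H2-DMa stood at -0.73 ± 0.23 with and -0.45 without 9180, and H2-DMb2, the other beta chain of H2-DM, at -0.33 ± 0.30. The summed level of the list was 120 to 427 CPM in CKD and 264 to 822 CPM in control libraries, 822 CPM being that of 9180 and 483 CPM the next. Bulk tissue cannot tell fewer cells of a type from less RNA per cell. Of 9 dendritic cell genes tested, 8 lay below 0 with all libraries, as did 7121 of all 13902 genes, and 5 without 9180. Of these genes Cd83 held lower, among 0.893% of all genes. The list median was -0.29 with and -0.05 without 9180, -0.47 without 9183 and 9184, and 0.02 without 9180, 9183 and 9184. Of 11 resident macrophage genes none held, and their medians were 0.15 and 0.19.

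Promoters of 3 of these genes are printed because the genes stood lower together and share the arrangement known from MHC class II promoters, a TGANG box, part of the X box region, followed by the Y box TGATTGG. Capitals mark both boxes, with 18 to 22 bases allowed between them on either strand.
H2-Aa, chr17:34287824-34287943, minus strand: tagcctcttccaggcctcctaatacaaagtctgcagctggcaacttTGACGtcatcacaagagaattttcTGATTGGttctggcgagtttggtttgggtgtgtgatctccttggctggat
H2-Eb1, chr17:34305747-34305866, plus strand: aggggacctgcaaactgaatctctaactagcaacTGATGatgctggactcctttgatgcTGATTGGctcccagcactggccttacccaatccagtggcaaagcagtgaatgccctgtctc
H2-DMb1, chr17:34153071-34153190, plus strand: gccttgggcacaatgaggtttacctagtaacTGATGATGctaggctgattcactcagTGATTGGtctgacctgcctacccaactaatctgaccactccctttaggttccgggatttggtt
H2-Ab1, Ciita and Cd74 have no entry in the table used, and the promoters of H2-DMa and H2-DMb2, which did not hold, were not looked up. The gap is 19 bases in H2-Aa and 20 in H2-Eb1, and in H2-DMb1 a pair of overlapping TGANG boxes gives gaps of 21 and 18. The arrangement occurs in 0.225% of the 32851 promoters and the Y box letters alone in 7.82%. The sequences are again those of RefSeq on GRCm38.p6, and the search was chosen after the values were seen.

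Neutrophil transcripts were scarce in remote tissue and stood higher in CKD. Of 12 marker genes 6 passed the filter on low counts, all 6 lay above 0, and 3 held higher, among 0.584% of all genes. S100a8, a calcium-binding protein abundant in neutrophils, had 1.01, 2.94 and 6.11 CPM (lowest, median, highest) in CKD and 0.336, 0.733 and 1.12 CPM in control libraries. The groups overlap in 1 CKD library, and the log2 fold change was 2.28 ± 0.46 without 9180 (adjusted p = 0.152). Its partner S100a9 had 2.42, 4.28 and 9.92 CPM in CKD and 0.515, 1.42 and 2.48 CPM in control libraries (1.86 ± 0.44 without 9180, adjusted p = 0.217). Cxcr2, the chemokine receptor of neutrophils, averaged 0.626 ± 0.333 CPM in CKD and 0.168 ± 0.161 CPM in control libraries (SD, n = 8 and 6; 1.95 ± 0.54). Its highest count in any library was 21. A gene this scarce can pass the filter through the group where it is higher, so its side of 0 adds no support. It held with only 4 of the 13 further libraries left out in turn. The neutrophil sum was 13.9 to 33 CPM in CKD and 9.46 to 17.1 CPM in control libraries. The list median was 1.22 with all libraries, 1.86 without 9180 and 0.39 without CKD 9179. These medians do not cover the same members. There were 6 tested with all libraries and 7 without 9180, and without 9179 the median takes those of the 6 still tested. S100a8 and S100a9 held whichever further library was left out, that of 9179 included.

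Monocyte genes did not move together. Of 8 tested 2 held higher, among 0.584% of all genes, 1 of them Chil3, a chitinase-like protein of myeloid cells, at 1.02 ± 0.34 (adjusted p = 0.307). Ccr2, the receptor that draws inflammatory monocytes out of the marrow, stood at -1.02 ± 0.36 with all libraries and at -0.43 ± 0.24 without 9180, where Ccr2 had 9.79 CPM. Erythroid genes give a measure of blood in the tissue, and they ran the other way. Their sum was 135 to 1233 CPM in CKD and 302 to 2339 CPM in control libraries, with a list median of -1.42 (-1.58 without 9180, -0.90 without 9183 and 9184) and none of 5 holding. The part of blood content in the leukocyte values was not tested.

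Keratins and other epithelial genes of the heart's mesothelial cover stood lower in CKD, with 9180 and without it. All 10 mesothelial markers tested lay below 0, with a median of -1.09 with all libraries, -1.22 without 9180 and -1.17 without 9183 and 9184, and 2 held lower, among 0.893% of all genes. Krt8, a keratin of simple epithelia, had 0.335, 0.843 and 2.10 CPM (lowest, median, highest) in CKD and 2.62, 3.41 and 5.61 CPM in control libraries. These groups did not overlap (-1.94 ± 0.35, adjusted p = 0.0789, -2.03 without 9180 and -1.85 without 9183 and 9184). Its partner Krt18 had 0.430, 1.63 and 2.23 CPM in CKD and 1.63, 4.59 and 15.7 CPM in control libraries (-1.99 ± 0.43, adjusted p = 0.182, and -1.39 without 9180). Upk1b, a uroplakin of mesothelium, had 0.522, 1.25 and 4.02 CPM in CKD and 2.53, 3.83 and 8.61 CPM in control libraries, which overlap (-1.57 ± 0.44, adjusted p = 0.272). Kidney epithelia make keratins too. Krt8 had 2.62 to 5.61 CPM in the other 4 control libraries, against 5.29 CPM in 9183 and 3.43 CPM in 9184.

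Outside the list, and named after their values were seen, Has1, which makes hyaluronan, held with 0.319, 0.689 and 1.69 CPM in CKD against 1.47, 2.07 and 5.88 CPM in control libraries (-1.67 ± 0.38, adjusted p = 0.193). The adhesion gene Cdh3 held at -2.48 ± 0.60 and Krt7 at -1.30 ± 0.43. Has1 held whichever of 13 further libraries was left out, Cdh3 in 11 of these cases and Krt7 in 5. Wnt4, a secreted signal of epithelia, held at -2.0 ± 0.37 (adjusted p = 0.0789), but its highest control libraries were 9183 and 9180 at 11.5 and 5.37 CPM, and without 9183 and 9184 it stood at -1.44. Core mesothelial markers such as Wt1 and Msln did not hold, at -0.34 ± 0.19 and -1.26 ± 0.52. The summed level of the list was 22.8 to 76.8 CPM in CKD and 47.5 to 116 CPM in control libraries, and how much epicardium each piece of tissue carried was not tested.

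Fibrillar collagens and activated fibroblast genes differed much less without 9180, while a smaller set of matrix genes held. None of 12 fibrillar matrix genes held, and their median was -1.72 with and -0.72 without 9180, and -0.45 without 9180, 9183 and 9184. Of 12 activated fibroblast genes 1 held lower, among 0.893% of all genes: Comp, a collagen-binding cartilage matrix protein. The list median was -2.31 with and -0.75 without 9180, and -0.24 without 9180, 9183 and 9184. Comp had 1.34, 3.56 and 9.52 CPM (lowest, median, highest) in CKD and 1.98, 13.8 and 109 CPM in control libraries, which overlap widely (-2.82 ± 0.70, adjusted p = 0.236, and -1.62 without 9180). Itga11, the collagen receptor of activated fibroblasts, had 2.39, 3.83 and 5.56 CPM in CKD and 5.12, 6.80 and 26.6 CPM in control libraries (-1.38 ± 0.34, adjusted p = 0.236). Without 9180 its log2 fold change was -0.78 ± 0.19, and its highest control level 8.59 CPM.

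Further matrix genes that held lower were picked after their values were seen. Prelp, a small leucine-rich proteoglycan, had 32.3, 43.3 and 54.3 CPM in CKD and 48.1, 62.4 and 105 CPM in control libraries (-0.75 ± 0.20, adjusted p = 0.272, and -0.74 without 9180). Chad, a leucine-rich matrix protein of cartilage, had 0.149, 0.335 and 0.911 CPM in CKD and 0.471, 0.861 and 7.23 CPM in control libraries, where 9180 was the lowest (-2.40 ± 0.59, adjusted p = 0.236, and -2.63 without 9180). Fmod held at -3.15 ± 0.75 with and -1.76 without 9180. Others that held were Fbln1 (-0.52 ± 0.16) and Smoc2 (-0.37 ± 0.11), both secreted matrix proteins, Cdh11 (-1.23 ± 0.31), a cadherin of fibroblasts, and Mmp2, a matrix metalloproteinase, which stood at -0.94 ± 0.27 with and -0.56 without 9180. Chad, Smoc2 and Fbln1 were thus lower by as much or more when 9180 was left out. Itga11 and Chad held whichever of 13 further libraries was left out, and Smoc2 held in 12 of these cases. Prelp, Fmod and Cdh11 held in 11, Fbln1 in 10, Mmp2 in 6 and Comp in 5. Resting fibroblast genes did not hold in any of 9 cases, with medians of -0.38 and -0.24 without 9180.

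Some muscle and mitochondrial genes held slightly higher in CKD, while most members of their lists did not hold. Tnnt2, cardiac troponin T, had 10613, 13644 and 15344 CPM (lowest, median, highest) in CKD and 7395, 9859 and 11643 CPM in control libraries (0.47 ± 0.13, adjusted p = 0.272, and 0.41 without 9180). It was the only one of 12 ventricular muscle genes to hold, in a list with a median of 0.24 with and 0.12 without 9180. Ckmt2, the mitochondrial creatine kinase of muscle, had 2237, 2445 and 2734 CPM in CKD and 1126, 1927 and 2248 CPM in control libraries (0.42 ± 0.13, adjusted p = 0.287, and 0.32 without 9180). In both genes 9180 was the lowest control library, and CKD and control libraries overlapped in a narrow band. Tuba4a, a tubulin of muscle, stood at 0.63 ± 0.18 (0.53 without 9180).

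Among genes of the mitochondrial ribosome, picked by symbol after the values were seen, 72 of 74 tested lay above 0, as did 6781 of all 13902 genes, with a median of 0.16 (0.12 without 9180). Of these 4 held higher, among 0.584% of all genes. Mrpl45, of the large subunit, ranged from 87.8 to 103 CPM in CKD and from 54.3 to 85.6 CPM in control libraries, with no overlap (0.39 ± 0.09, adjusted p = 0.182, and 0.32 without 9180). The others were Mrpl19 (0.29 ± 0.08), Mrps26 (0.28 ± 0.08) and Mrpl16 (0.26 ± 0.08). Of 17 mitochondrial tRNA synthetases, Sars2 (0.41 ± 0.12) and Rars2 (0.24 ± 0.07) held, against the same 0.584%. Further genes of mitochondrial assembly that held were Cox10 (0.35 ± 0.11), which acts in making the haem of cytochrome oxidase, and Tomm22 (0.22 ± 0.07) of the import pore. Ciapin1 (0.44 ± 0.09) and Bola3 (0.35 ± 0.10) of iron-sulfur cluster assembly, and Slirp (0.87 ± 0.19), which stabilises mitochondrial RNA, held too. How many genes of this kind were tested was not counted. With 13 further libraries left out in turn, Cox10 held in 6 cases, Tomm22 and Bola3 in 5, and Ciapin1 and Slirp in all 13. None of 15 oxidative phosphorylation subunits held, and their median was 0.19 with and 0.06 without 9180. With the muscle score of each library as a covariate, Tnnt2 stood at 0.32, Ckmt2 at 0.22 and Mrpl45 at 0.25.

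**Figure D4:**
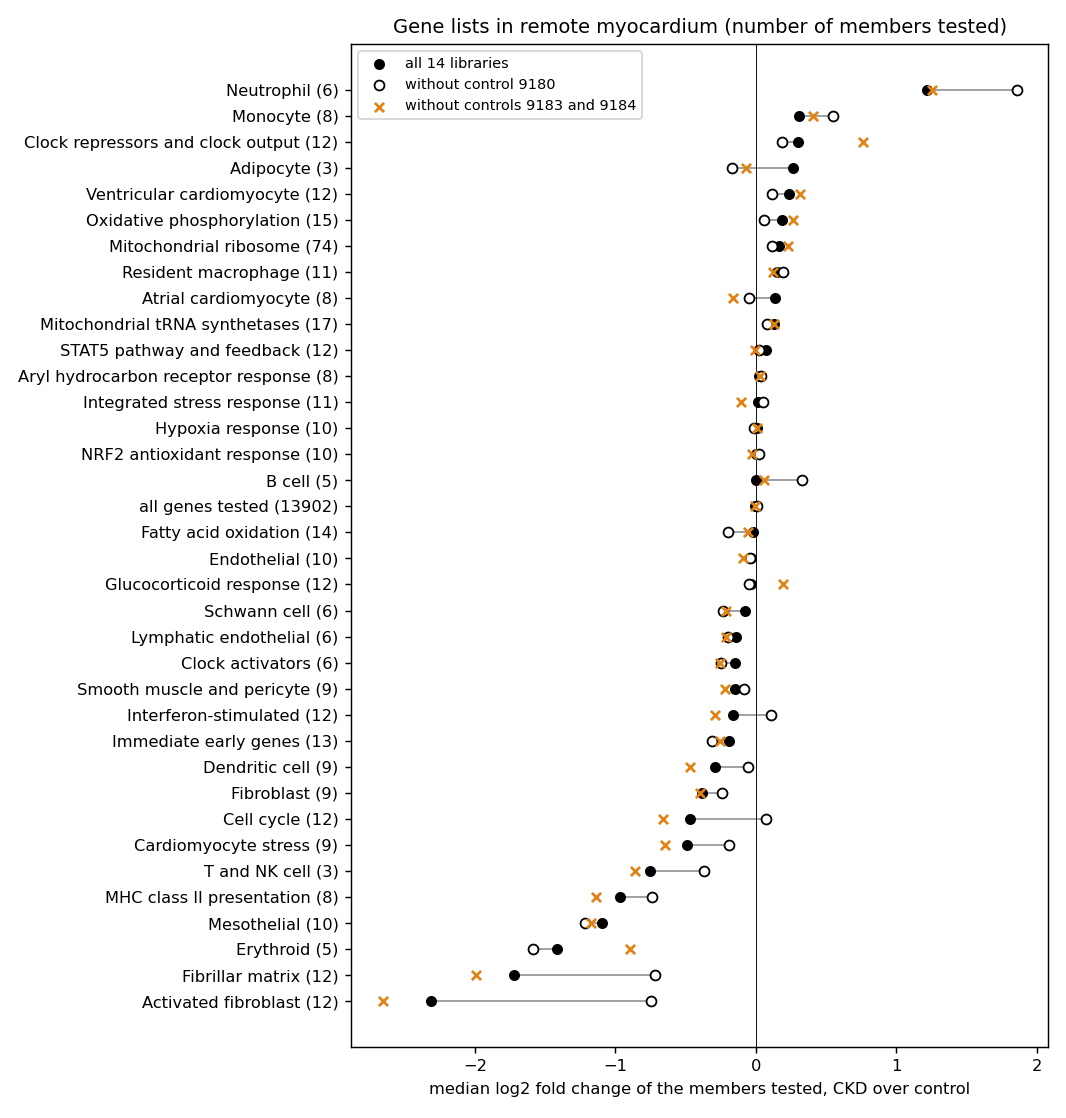
Median log2 fold change of CKD over control (x axis) for each gene list (y axis, number of members tested in brackets), from all 14 libraries (filled), without control 9180 (open) and without controls 9183 and 9184 (crosses). Activated fibroblast and fibrillar matrix genes move most between filled and open points, from -2.31 and -1.72 to -0.75 and -0.72, while mesothelial and MHC class II genes stay between -1.22 and -0.74.

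Agt and Angpt1, genes of blood pressure and vessel growth, were among those that held higher. Agt, the precursor of angiotensin, averaged 9.14 ± 3.66 CPM in CKD and 4.93 ± 1.56 CPM in control libraries (SD, n = 8 and 6; 0.89 ± 0.26, adjusted p = 0.281). Angpt1, a ligand that stabilises vessels, had 11.2, 16.5 and 21.5 CPM in CKD and 3.72, 8.29 and 13.2 CPM in control libraries (0.96 ± 0.24, adjusted p = 0.236, and 0.80 without 9180). For Angpt1 most CKD libraries lay above most control libraries. Without 9180, 9183 and 9184 Agt stood at 0.72 and Angpt1 at 0.63. Among other genes that held whichever further library was left out and had no overlap were Dipk1b (0.54 ± 0.10), Chd6, a chromatin remodeller (0.68 ± 0.12), and Tmx1, a thioredoxin-related protein of the endoplasmic reticulum (0.63 ± 0.11), all higher in CKD. D630003M21Rik (-0.64 ± 0.11) and Sugct (-1.13 ± 0.25) were lower in CKD and likewise apart.

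Some of the lower genes rested on 9183 and 9184. Of the 124 that held lower, 14 had a log2 fold change under 2/3 of its size without those libraries and 11 an unadjusted p of 0.05 or more, in a fit where 15.6% of all genes were under 0.05, while none of the 81 higher genes did either. Napsa, an aspartic protease of kidney and lung, had 35.4 and 9.51 CPM in 9183 and 9184, against 0.484 to 1.41 CPM in CKD and 0.559 to 2.25 CPM in the other control libraries, and its log2 fold change was -3.29 with them and -0.40 without. The same pattern was seen in Lrp2, the endocytic receptor megalin (-3.09 and -0.75), Fxyd2, a subunit of the sodium pump of tubules (-1.99 and 0.01), and Slc13a3, a dicarboxylate carrier (-1.75 and 0.07). Ass1, argininosuccinate synthase, was affected in part and stood at -1.25 with them, -0.68 without them and -0.21 without 9180 as well.

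The infarct tissue of the same mice gave a partial match. Of the 122 lower genes tested there, 105 also lay below 0, where 51.6% of all genes did, and of the 80 higher genes 73 lay above 0. In infarct tissue 20.3% of 14358 genes passed the adjusted threshold, 13.1% higher and 7.14% lower, by edgeR. Without CKD mice 9172 and 9179 none of 14515 did (0.00%), with 4064 genes at an unadjusted p under 0.05. Muscle content moved with the groups in that tissue: Myh6 had 27823 CPM in 9172, 33177 CPM in 9179 and 10052 to 18200 CPM in the other CKD infarcts, against 646 to 10804 CPM in control infarcts. Its part in the infarct values was not tested. Of the genes that held in remote tissue, 55 of 80 passed higher and 29 of 122 lower there, and 0 passed in the opposite direction. Cish passed, with 44.5 ± 22.7 CPM in CKD and 15.4 ± 6.40 CPM in control infarcts (SD, n = 7 and 6; 1.53 ± 0.37, SE, adjusted p = 0.0345), as did Tnnt2 (1.44 ± 0.39) and Tuba4a (2.12 ± 0.55). Itga11 (-1.87), Prelp (-1.16), Chad (-1.48) and Has1 (-2.72) passed lower. Bcl6 stood at -0.32 ± 0.15 (adjusted p = 0.131) and Ciita at -0.50 (adjusted p = 0.347).

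Krt8, Aqp8 and S100a9 stood near 0 or on the other side of it in infarct tissue. Krt8 averaged 5.93 ± 5.97 CPM in CKD and 5.66 ± 2.19 CPM in control infarcts (SD, n = 7 and 6; 0.08 ± 0.57). Aqp8 averaged 3.13 ± 1.59 and 3.18 ± 1.78 CPM in CKD and control infarcts. S100a9 stood at -0.41 ± 0.66 there. The difference between the regions passed for none of 14770 genes in edgeR (0.00%), with 2787 at an unadjusted p under 0.05 (18.9%), among them 55 of the genes that held. That fit takes no account of mouse, although 13 mice gave both regions. With mouse as a replicate block in limma-voom, 1 gene passed, the zinc finger gene Zfp451, named after its values were seen (0.61 ± 0.10, adjusted p = 0.0279, and 0.0811 without the block). By edgeR, for Krt8 the remote effect minus the infarct effect was -2.02 ± 0.70 (adjusted p = 0.165), for Aqp8 -1.38 ± 0.50 (adjusted p = 0.169) and for S100a9 2.22 ± 0.82 (adjusted p = 0.169). With the block these were -1.74 ± 0.71, -1.85 ± 0.50 and 1.90 ± 0.75, with adjusted p = 0.165, 0.123 and 0.157.

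**Figure D5:**
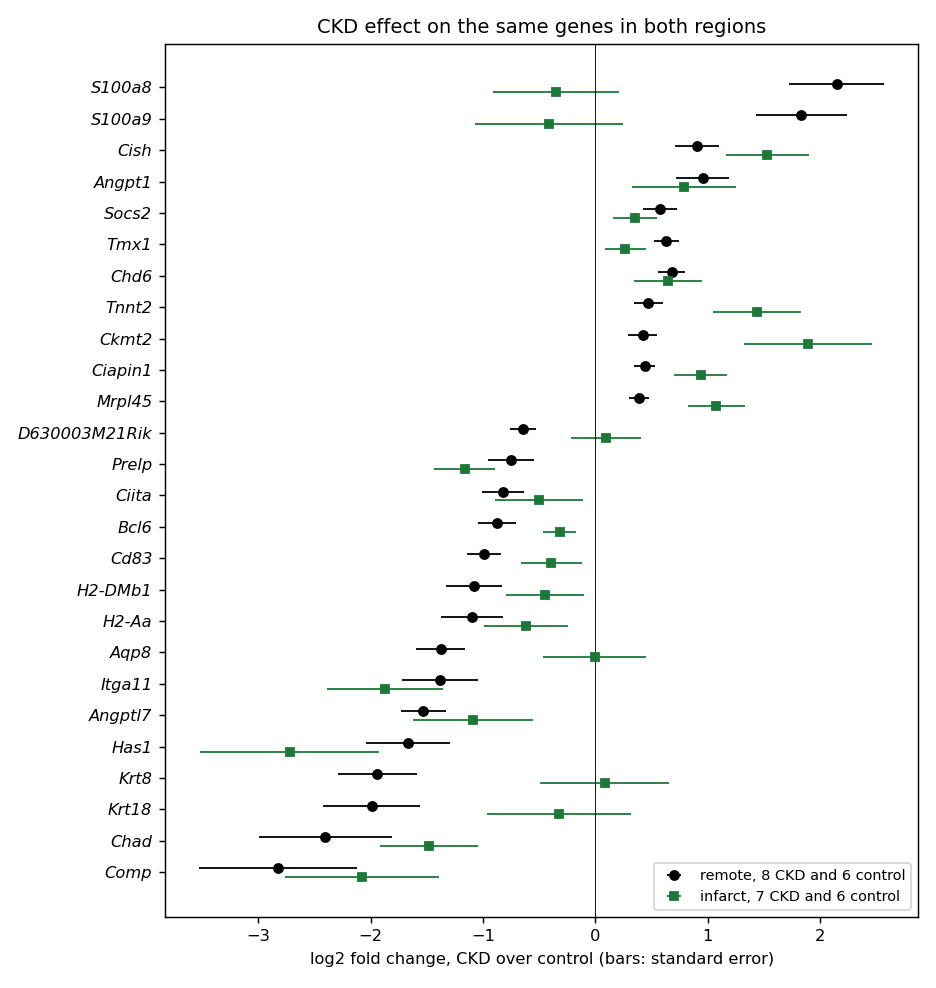
Log2 fold change of CKD over control with its standard error (x axis) for 26 genes (y axis) in remote myocardium (black circles, 8 CKD and 6 control) and in infarct tissue (green squares, 7 CKD and 6 control). Cish and Tnnt2 lie right of 0 in both regions and Itga11, Prelp and Has1 left of 0 in both, while Krt8, Aqp8, S100a8 and S100a9 lie near 0 or on the other side in infarct tissue.

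Several stress and clock programmes had no gene that held. No member held among 12 genes of the clock repressor and output list, 6 clock activators, 12 glucocorticoid targets, 8 targets of the aryl hydrocarbon receptor, 10 NRF2 targets, 11 genes of the integrated stress response, 13 immediate early genes or 10 hypoxia genes. Over all genes 1.48% held, a share at which lists this short may have no member that holds. The 8 medians lay between -0.19 and 0.30. Of the clock repressor and output genes 11 of 12 lay above 0, and 5 of 6 clock activators and 10 of 13 immediate early genes lay below it. Without 9180 these were 9 of 12, 5 of 6 and 11 of 13. With all libraries the other lists were split more evenly, and of all genes 6781 lay above 0 and 7121 below. Of the 12 glucocorticoid targets, 10 lay below 0 without 9180, with a median of -0.05, while the median was 0.20 without 9183 and 9184. The clock repressor and output list stood at 0.30 with all libraries and at 0.76 without 9183 and 9184. Several lists changed side with 9180. Interferon-stimulated genes had 11 of 12 members below 0 with it and 12 of 12 above 0 without it (medians -0.16 and 0.11), and cell cycle genes had 12 of 12 below 0 with it and 10 of 12 above 0 without it (-0.47 and 0.07). Fatty acid oxidation genes had 9 of 14 below 0 with it and 14 of 14 without it (-0.02 and -0.20). Cardiomyocyte stress genes had medians of -0.49 and -0.19, and Nppa, the atrial natriuretic peptide gene, which had 1668 CPM in 9180, stood at -1.82 ± 0.71 with it and -0.36 ± 0.49 without it.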

How the data were processed

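Bulk RNA sequencing was done on heart pieces snap-frozen after rinsing, with DNase-treated RNA and a NEBNext Ultra II library kit, per the labels' protocols. The authors deposited whole-number counts per gene for 27304 genes. The notes on processing by the submitters name kallisto 0.48.0 and GRCm39, and how transcript estimates became counts per gene is not given in the sources used here. For 27 genes a date stood in place of the symbol, which was restored from their identifiers, and 479 entries sharing a symbol were kept apart. The Ighm and Ighd genes of the B cell list were not analysed here, and a few further genes are not reported here.

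After filterByExpr and TMM scaling, genes were tested by quasi-likelihood in edgeR 4.0.16 (R 4.3.3), with Benjamini-Hochberg adjustment, within the libraries of a region. The difference between regions came from 1 fit of all 27 libraries. Procedures were tested on simulated data. Alternatives used DESeq2 1.42.0 and limma-voom (limma 3.58.1), other filters and scalings, covariates and left-out libraries. The fits without 9183 and 9184, and the difference between regions with mouse as a block, were added after the data were seen. A chi-square check of 43 pairs of remote libraries within groups found no duplicate (at least 9.52 per degree of freedom). Both regions of 13 mice were sequenced, so mouse numbers pair these libraries, and residuals of the 13 pairs correlated at -0.10 to 0.40. Libraries of a group came from separate mice.

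The comparison and all lists were chosen with earlier results of these data known. The rule for named genes took, at a mean of at least 1 CPM, those passing an adjusted p of 0.05, the 12 per direction that held with the smallest larger p, and up to 3 members per list. The STAT5, kidney and mitochondrial ribosome and tRNA synthetase lists, and further genes that held, such as Krt18, Cdh3, Chad, Prelp, Agt, Napsa and, under 1 CPM, Cxcr2 and Chil3, were named after their values were seen.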

Additional observations from a re-analysis of the deposited data

Results flagged for a closer look

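In 164 tests of a group of libraries, 9 had a library far from the rest of its group on a log scale, and chance alone gives about 1 in 20. The library of control mouse 9180 accounts for 7 of them. It was high for Itga11 (26.6 CPM), Cd22, a B cell receptor protein (4.76 CPM) and Socs1 (3.48 CPM). It was low for the muscle and mitochondrial genes Myh6 (11073 CPM), Ckmt2 (1126 CPM) and Cox5a (237 CPM) and for Dipk1b (13.8 CPM). The library of control mouse 9171 was high for the early response gene Btg2 (104.7 CPM) and for Has1 (5.88 CPM). Itga11, Ckmt2, Dipk1b and Has1 held without 9180 and with it.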

How the results depend on the processing

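The 3 genes passing an adjusted p of 0.05 numbered 1 without control 9180, 1 with no filter on low counts, 1 in a fit of all 27 libraries, 1 with mouse 9179 counted as control, 5 with limma-voom and sample weights, 97 with DESeq2 (37 higher, 60 lower) and 0 with the muscle score as covariate (951 at an unadjusted p under 0.05). Leaving out 1 library at a time gave 1 to 6, with 6 without CKD 9174, 5 without CKD 9179 and 1 without CKD 9172, 9175, 9177 or 9178 or control 9170, 9171 or 9180. The 205 genes that held numbered 392 with no filter, 311 with DESeq2, 109 with all 27 libraries, 97 with the covariate, 863 at a p of 0.05 and 38 at a p of 0.001. Leaving out 1 further library at a time gave 137 to 288. With mouse as a replicate block in limma-voom over all 27 libraries, 0 genes passed and 77 held, against 0 and 75 without the block; 886 genes had an unadjusted p under 0.05 in each of these fits. DESeq2 called 63 genes without 9180 and 50 both with and without it, and all 50 held by edgeR. Of the 205 themselves, 161 held without mouse 9179, 96 with it counted as control and 47 with the covariate. The difference between regions, 0 genes by edgeR, numbered 1 with the replicate block and 0 without it in limma-voom.

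Over 82 named genes, 2023 of 2131 log2 fold changes kept their direction and side of the threshold. That is a weak check, because only 3 genes passed the threshold at the start. Most fold changes that turned had small values. With the muscle score as covariate these were Ccna2 0.033, Cd22 0.12, Cfd -0.91, Ghr -0.077, Igf1 0.12, Myh6 -0.10, Nppa 0.16, Socs1 0.085, Socs3 0.28, Stat5a -0.041 and Stat5b -0.095. Without 9180 they were Ghr -0.0047 and Socs3 0.074, and with sample weights Ghr -0.10, Nppa 0.055 and Socs3 0.21. Ghr was -0.026 with 9179 as control. Without 9183 and 9184 Cfd was -0.068 and Pim1 -0.046, without 9183 alone Pim1 -0.0097, and without CKD 9176 Cfd -0.30. With 1 library left out at a time, Cfd ranged from -0.30 to 1.26, Ghr from -0.0047 to 0.13, Pim1 from -0.0097 to 0.18 and Socs3 from -0.33 to 0.074. In infarct tissue without CKD 9172 and 9179, Angpt1 was -0.10, Aqp8 0.19, D630003M21Rik -0.12, Napsa 0.35 and Tmx1 -0.00734. The cause of these turns was not tested.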
